A study of Mus musculus with 64 samples.

Results

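Mice labelled Clock delta 19 mutant were compared with mice labelled Wildtype after treatment with ACY957, an inhibitor of class I histone deacetylases. The comparison takes its members from the labels alone: the 8 libraries with the mutant label and ACY957 and the 8 libraries with the Wildtype label and ACY957, 16 of the 64 libraries of the series. Each library came from 1 adult male mouse, and the labels give the strain of both groups as 129S1/Svlm. All 16 mice received ACY957 for 14 days, and the ventral tegmental area was punched bilaterally at zeitgeber time 6 (6 h after lights on), about 24 h after the last dose. The mutant label therefore differs from the Wildtype label in genotype only, as far as the labels say, and no untreated mouse is in the comparison. Mouse numbers 17 to 24 carry the Wildtype label and 40 to 47 the mutant label, so an effect of the label and of anything that went with the order of the mice cannot be told apart.

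The circadian clock of mammals is a loop of transcription and translation. CLOCK pairs with BMAL1 (encoded by Arntl) on E-box sequences and switches on the Per and Cry genes, whose proteins return to the nucleus and repress CLOCK and BMAL1. A further loop uses REV-ERB repressors (Nr1d1, Nr1d2), themselves switched on through E-boxes, to hold Arntl and Npas2 down. The Clock delta 19 allele skips an exon of Clock and yields a protein that still binds DNA with BMAL1 but activates poorly, and mice that carry it are used as a model of mania, with altered dopamine neuron activity in the ventral tegmental area. Class I histone deacetylases are part of the corepressor complexes through which PER, CRY and REV-ERB proteins silence their targets.

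The sequences that the comparison turns on are the exon that the allele loses and the E-box windows of genes described below. Exon 19 of Clock-201 in GENCODE M21, whose loss defines the allele, lies at chr5:76231396-76231548 on the minus strand of mm10. It holds 153 bases, which is 51 whole codons, so its loss keeps the reading frame. The deposited values are counts over the whole Clock gene, so they do not show whether a library lacks this exon.
Clock exon 19: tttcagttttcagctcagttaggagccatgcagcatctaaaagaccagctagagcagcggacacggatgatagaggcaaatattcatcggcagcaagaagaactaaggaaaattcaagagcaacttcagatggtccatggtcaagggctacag

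The windows before the RefSeq starts (GRCm38.p6) of Ciart, Eif5a2, Cry1 and Bhlhe41 are shown because they hold the E-box CACGTG, printed in capitals, which reads the same on both strands. They lie at chr3:95882252-95882364 on the minus strand for Ciart, at chr3:28781115-28781214 on the plus strand for Eif5a2, at chr10:85185065-85185134 on the minus strand for Cry1 and at chr6:145865559-145865593 on the minus strand for Bhlhe41. Each stops before the first annotated exon base. The Ciart window has 3 E-boxes, which begin 116, 58 and 44 bases before the start, and that of Eif5a2 has 2, which begin 142 and 117 bases before it.
Ciart: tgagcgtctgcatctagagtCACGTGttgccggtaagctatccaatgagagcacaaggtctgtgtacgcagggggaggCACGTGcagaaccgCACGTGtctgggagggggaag
Eif5a2: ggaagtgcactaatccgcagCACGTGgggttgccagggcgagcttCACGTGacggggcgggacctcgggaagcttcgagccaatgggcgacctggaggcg
Cry1: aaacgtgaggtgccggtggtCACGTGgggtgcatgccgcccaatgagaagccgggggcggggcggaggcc
Bhlhe41: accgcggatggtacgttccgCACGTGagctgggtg

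Total counts of the 16 libraries lay between 20.1 M and 29.8 M (median 25.7 M), and pairs of them correlated at 0.9847 to 0.996. Values are given as CPM, read counts scaled to a common library size by TMM, which allows a gene to be compared between libraries but not genes of different length with each other. A single edgeR model of all 64 libraries, in which every one of the 8 groups had its own mean, tested the 15634 genes with enough reads. A gene passed when its p, adjusted by Benjamini-Hochberg over those genes, was under 0.05. Log2 fold changes are of the mutant over the Wildtype label with their standard error (SE).

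Before the results, 3 of the 16 libraries have to be set apart from their labels. The clock output score, the mean log2 CPM of 8 genes driven by the clock (Dbp, Tef, Per2, Per3, Nr1d1, Nr1d2, Ciart and Bhlhe41), was 5.41, 5.27, 5.25, 5.26, 5.34, 5.25, 5.13 and 4.27 in wildtype replicates 1 to 8. In mutant replicates 1 to 8 it was 4.97, 4.04, 4.91, 4.05, 3.98, 4.16, 4.16 and 4.13. Wildtype replicate 8 thus lay near the mutant-labelled libraries, and mutant replicates 1 and 3 lay between the groups, below every other wildtype-labelled library. The score used CPM without TMM scaling or a prior count. Its 8 genes are also described singly below, and their values in these libraries are part of the score, not separate evidence. In the other wildtype-labelled groups the lowest score was 5.02, in the VPA vehicle group. Whether a label is wrong was not tested, and the gene counts do not show the genotype. These 3 libraries were kept under their labels, and the counts of genes that passed, the fold changes of named genes and the list medians were repeated without every library in turn. Leaving out all 3 together would pick libraries by the outcome and was not done.

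No gene passed between the labels in the model of all 64 libraries, a share of 0% of the 15634 genes tested. At an unadjusted p under 0.05, edgeR gave 757 genes (4.84%), of which 418 were lower (2.67%) and 339 higher (2.17%) in mutant-labelled libraries. DESeq2 called 5 genes (Ier3, Epor, Gapdh, Gpr155 and Trh) and limma voom 0. Fitted alone, the 16 libraries gave 8 genes of 14651 (0.0546%), all lower with the mutant label: Wee1, Mthfd1l, Plbd2, Eif5a2, Gpr155, Ifit3b, Ier3 and Bhlhe41. The labels put 3 and 13 mice (Wildtype and mutant) in the VPA vehicle and 5 and 11 in the ACY957 vehicle, while the series' design gives 8 a group, so some vehicle labels may not be those of the design. A model without the 16 vehicle libraries labelled mutant whose mouse numbers are above 47, the last mouse of the ACY957 group, gave 20 genes of 15551 (0.129%), again all lower, and these included the 8. The fold changes of the 8 genes were nearly the same in these fits, and why the counts differed was not tested. Without each of the 16 libraries in turn, the model of all libraries gave 0 to 2 genes, the fit of the 16 libraries 0 to 30, and the model without the vehicle libraries 14 to 30. The fit of the 16 libraries gave 30 genes without wildtype replicate 8, 19 without mutant replicate 3 and 14 without mutant replicate 1, and 0 without any of 6 other libraries. Of the 8 genes, Wee1 and Plbd2 passed in 9 of these 16 fits, Mthfd1l in 8, Gpr155 in 7, Eif5a2 in 6, and Ier3, Ifit3b and Bhlhe41 in 3.

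Clock itself (chromosome 5, 76209868 to 76304792, minus strand, mm10) was measured at 56.1, 66.9 and 78.6 CPM (lowest, median and highest) with the wildtype label and at 68.7, 73.4 and 84.2 CPM with the mutant label. The groups overlapped, and 3 mutant-labelled libraries lay above the highest wildtype one. Its difference, a log2 fold change of 0.14 (SE 0.10), did not pass in edgeR (unadjusted p = 0.152). It was 0.06 under VPA and 0.10 in the vehicle of ACY957.

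The other activators of the loop were Arntl, Npas2 and Arntl2 (partners or stand-ins of CLOCK) and ROR receptors such as those of Rora and Rorb, which switch Arntl on. Of the 7 genes on the activator list, Clock included, 5 were higher and 2 lower, and none passed. At an unadjusted edgeR p under 0.05, 2 were higher, beside 2.17% of all genes tested. The list's median log2 fold change was 0.03, against 0.00 over all genes tested. Arntl, which encodes BMAL1 and is repressed by the REV-ERBs, was at 16.6, 15, 15.3, 13.9, 17, 18.4, 16.7 and 23.5 CPM in wildtype replicates 1 to 8. In mutant replicates 1 to 8 it was at 17.7, 25.1, 19.0, 23.7, 24.1, 23.4, 23.5 and 24.2 CPM. Wildtype replicate 8 had a level like that of most mutant-labelled libraries, and mutant replicates 1 and 3 were the lowest of their group. Its log2 fold change of 0.41 (SE 0.14) did not pass (edgeR adjusted p = 0.826). Npas2, a paralog of Clock, had means of 3.52 CPM (SD 0.761) with the wildtype and 5.04 CPM (SD 1.32) with the mutant label, for a log2 fold change of 0.52 (SE 0.19). Arntl2, Rora and Rorb had log2 fold changes of 0.00, -0.06 and 0.03.

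All 10 repressors of the loop were lower with the mutant label, 9 of them at an unadjusted edgeR p under 0.05, beside 2.67% of all genes tested lower at that level. The list's median log2 fold change was -0.58. None of the 10 passed in the model of all libraries. In the model without the 16 vehicle libraries 5 passed (Cry2, Nr1d1, Nr1d2, Ciart and Bhlhe41), and in the fit of the 16 libraries Bhlhe41 did. The median lay between -0.65 and -0.54 over the alternatives tried, each single library left out included.

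Among the PER genes, whose proteins form the repressing complex with CRY, Per2 (chromosome 1, 91415982 to 91459324) differed most. It was at 8.68, 6.91, 6.30, 7.57, 8.09, 7.94, 5.68 and 2.81 CPM in wildtype replicates 1 to 8 and at 6.18, 2.23, 5.13, 2.51, 2.06, 2.04, 2.39 and 2.85 CPM in mutant replicates 1 to 8. The overlap lay in the libraries that stand apart in the score, of which Per2 is itself a member. The other wildtype-labelled libraries were at 5.68 CPM or more and the other mutant-labelled ones at 2.85 CPM or less. The log2 fold change was -1.09 (SE 0.35), with an edgeR adjusted p of 0.617 and, without the 16 vehicle libraries, of 0.117. Per3 had means of 7.44 CPM (SD 1.6) and 4.77 CPM (SD 1.42) and a log2 fold change of -0.64 (SE 0.22). It lies within the longer gene Camta1, and how reads on exons of both were counted is uncertain. Per1, which is also induced by light and glucocorticoids, was the repressor nearest to no difference, at 19.4 CPM (SD 3.77) against 17 CPM (SD 3.22), with a log2 fold change of -0.20 (SE 0.16, unadjusted edgeR p = 0.235).

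The cryptochromes differed from each other in size. Cry2 (chromosome 2, 92403646 to 92434043) was at 89.8, 104, 103, 93.9, 86.5, 114, 86.8 and 55.6 CPM in wildtype replicates 1 to 8. With the mutant label it was at 61.6, 62.7, 76.9, 58.3, 47.3, 61.5, 56.1 and 68.8 CPM. Only wildtype replicate 8 lay within the range of the mutant-labelled libraries. Cry2 had a log2 fold change of -0.57 (SE 0.14 in all 64 libraries, 0.10 without the vehicle libraries), which passed without the 16 vehicle libraries (edgeR adjusted p = 0.00174) and not with them (0.260). Cry1 had a log2 fold change of -0.24 (SE 0.10), and wildtype replicate 6 was far above the rest at 45.4 CPM beside a wildtype median of 26.5 CPM. Over the alternatives, the Cry1 log2 fold change lay between -0.29 and -0.12.

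The REV-ERB genes encode nuclear receptors that bind heme and recruit a corepressor with the class I deacetylase HDAC3. Nr1d1 (chromosome 11, 98767932 to 98775333) was at 33.1, 39.8 and 49.9 CPM (lowest, median and highest) with the wildtype and at 20.9, 25.5 and 38.4 CPM with the mutant label. All mutant-labelled libraries but replicate 3 were below the lowest wildtype library. Its log2 fold change was -0.59 (SE 0.16), with an edgeR adjusted p of 0.334 in the model of all libraries and 0.0287 without the 16 vehicle libraries. Nr1d1 overlaps Thra on the other strand, and the strand setting of the counting is not given in the sources used here, so how reads of the overlap were counted is uncertain although the library kit marks strand. Thra had a log2 fold change of 0.14 (SE 0.057), opposite in sign to that of Nr1d1. Nr1d2 was at 114, 195 and 207 CPM with the wildtype and 98.0, 110 and 170 CPM with the mutant label. The highest mutant values were those of replicates 1 (170 CPM) and 3 (145 CPM), and the log2 fold change was -0.63 (SE 0.18, edgeR adjusted p = 0.530, and 0.00191 without the vehicle libraries).

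Ciart, which encodes the CLOCK repressor CHRONO, had the largest fold change of the clock genes listed. In wildtype replicates 1 to 8 it was at 8.50, 9.30, 7.72, 7.76, 9.59, 9.81, 8.26 and 1.70 CPM, and in mutant replicates 1 to 8 at 5.67, 1.15, 5.62, 1.37, 1.19, 2.12, 1.95 and 1.62 CPM. Wildtype replicate 8 lay within the mutant range, and mutant replicates 1 and 3 lay between the other mutant-labelled and the other wildtype-labelled libraries. Its log2 fold change was -1.60 (SE 0.47), with an edgeR adjusted p of 0.530 and, without the 16 vehicle libraries, of 0.00959. Bhlhe40 and Bhlhe41 encode DEC1 and DEC2, which compete with CLOCK and BMAL1 for E-boxes. Bhlhe41 was at 39.7, 62.5 and 67.8 CPM with the wildtype and at 35.7, 42.1 and 47.9 CPM with the mutant label, for a log2 fold change of -0.51 (SE 0.13). It passed in the fit of the 16 libraries (edgeR adjusted p = 0.0328) and in the model without the vehicle libraries (0.00125), but in only 3 of the 16 fits of the 16 libraries that left 1 out. Bhlhe40 had a log2 fold change of -0.47 (SE 0.12) and passed in none of these 3 fits, with edgeR adjusted p of 0.265 in the model of all libraries and 0.0581 without the vehicle libraries.

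**Figure D1:**
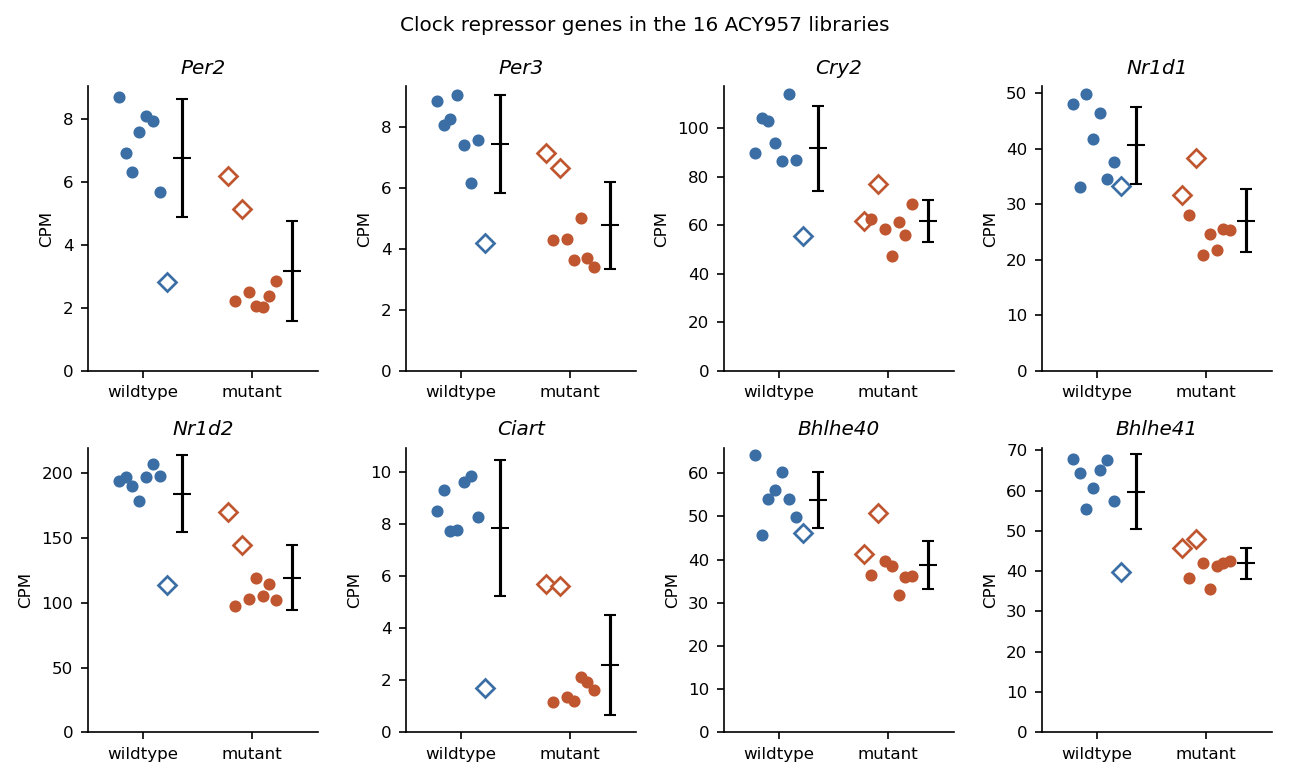
CPM of 8 clock repressor genes in the 16 ACY957 libraries, 1 point per library, with the mean and SD of each group in black; open diamonds mark wildtype replicate 8 and mutant replicates 1 and 3. For Per2, Ciart and Cry2 the wildtype diamond lies among the mutant-labelled points, at 2.81, 1.70 and 55.6 CPM.

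Kinases and ligases that time the decay of PER and CRY differed less. Of 6 genes, 3 were higher and 3 lower, with a median log2 fold change of -0.04. At an unadjusted edgeR p under 0.05, 1 was lower, beside 2.67% of all genes tested. That gene was Csnk1e, the casein kinase that phosphorylates PER, at 66.4 CPM (SD 3.59) with the wildtype and 56.8 CPM (SD 3.81) with the mutant label. In 6 of 8 mutant-labelled libraries it was below the lowest wildtype library, and its log2 fold change of -0.23 (SE 0.07) passed only without the 16 vehicle libraries (edgeR adjusted p = 0.0137). Its paralog Csnk1d had a log2 fold change of 0.00 (SE 0.04). The ligase genes Fbxl21 and Btrc were at -0.12 and -0.08, and Timeless was at 0.14 (SE 0.18).

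Of the 12 clock output genes tested, 9 were lower and 3 higher, with a median log2 fold change of -0.18. At an unadjusted edgeR p under 0.05, 5 were lower and 1 higher, beside 2.67% and 2.17% of all genes tested. The PAR bZIP factors, which carry the rhythm to metabolic genes, were all lower. Dbp was at 76.0, 75.9, 64.6, 64.1, 70.3, 53.1, 53.1 and 37.1 CPM in wildtype replicates 1 to 8 and at 50.9, 24.8, 50.8, 25.7, 27.5, 25.8, 29.1 and 25 CPM in mutant replicates 1 to 8. Its log2 fold change was -0.93 (SE 0.26, edgeR adjusted p = 0.389, and 0.0144 without the vehicle libraries), and it shares 737 bases with Sphk2 on the other strand. Tef had a log2 fold change of -0.57 (SE 0.15) and Hlf of -0.42 (SE 0.11), with edgeR adjusted p of 0.0209 and 0.00959 without the vehicle libraries. Nfil3, a repressor that competes with these factors, was at 7.14 CPM (SD 1.42) with the wildtype and 9.18 CPM (SD 1.44) with the mutant label, for a log2 fold change of 0.36 (SE 0.15, edgeR adjusted p = 0.953).

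Wee1, which encodes a kinase that holds CDK1 inactive and is a known clock target, was the only one of the clock genes listed whose groups did not overlap. It was at 38.5, 30.4, 30.9, 27.4, 37.1, 32.8, 33.3 and 32.5 CPM in wildtype replicates 1 to 8 and at 26.6, 20.7, 21.7, 21.3, 27.3, 21.9, 24.7 and 21.7 CPM in mutant replicates 1 to 8. Wildtype replicate 8, low for the repressors, was near the wildtype median of 32.6 CPM here. The log2 fold change was -0.50 (SE 0.12), with edgeR adjusted p of 0.213 in the model of all libraries, 0.0228 in the fit of the 16 libraries and 0.000267 without the vehicle libraries. Among the other outputs, Coq10b had a log2 fold change of -0.25 (SE 0.10), and Nampt, Usp2, Tsc22d3, Klf9, Lonrf3 and Tspan4 lay between -0.19 and 0.09.

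**Figure D2:**
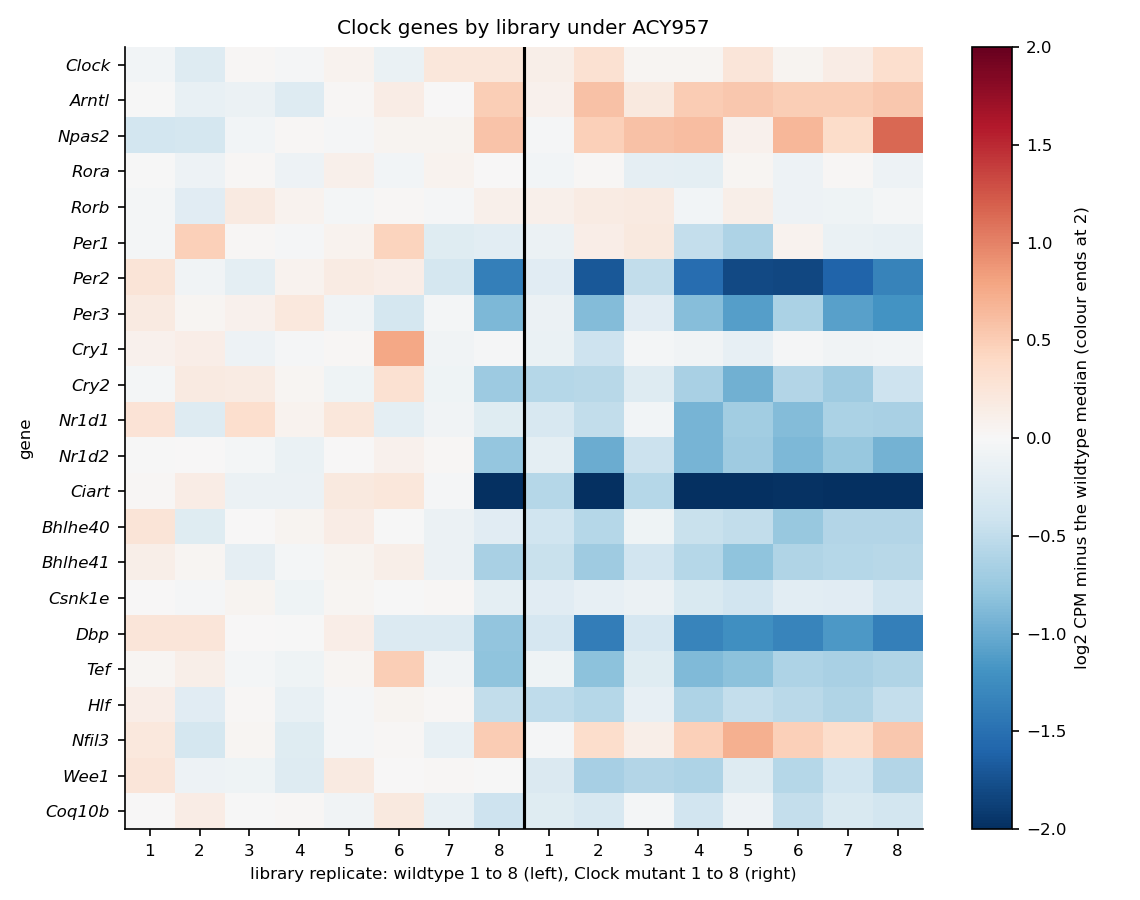
Log2 CPM of 22 clock genes (rows) in the 16 libraries (columns), each minus the gene's wildtype median; blue is lower and red higher, and colours end at a difference of 2. Column 8 of the wildtype side resembles the mutant side for Per2, Ciart and Arntl, and mutant columns 1 and 3 are paler than the other mutant columns for Per2, Ciart and Dbp.

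In 9 genes (0.0576% of those tested) all 8 mutant-labelled libraries lay on 1 side of all 8 wildtype-labelled ones: Cnnm2, Gpr155, Ier3, Patl2, Plbd2 and Wee1 were lower, and Klhl25, Trp53i13 and Trpv4 higher. Their names were taken after the values were seen. Ier3, a small protein induced early by stress and growth signals, was at 11.5, 10.8, 10.7, 10.1, 11.5, 11, 10.8 and 9.76 CPM in wildtype replicates 1 to 8. With the mutant label it was at 7.33, 8.52, 9.46, 7.94, 8.96, 8.73, 7.67 and 8.02 CPM. The nearest libraries of the groups were wildtype replicate 8 and mutant replicate 3. The log2 fold change was -0.37 (SE 0.07), the smallest adjusted p of the model of all libraries (edgeR adjusted p = 0.0851), and it passed without wildtype replicate 8 (edgeR adjusted p = 0.0458) and without mutant replicate 3 (0.0466). Gpr155, a lysosomal membrane protein that senses cholesterol, was at 65.3, 74.8 and 83.8 CPM (lowest, median and highest) with the wildtype and at 50.5, 56.8 and 64.2 CPM with the mutant label. Its log2 fold change was -0.37 (SE 0.08), with edgeR adjusted p of 0.186, 0.0263 and 0.000141 in the 3 fits. Plbd2, a lysosomal hydrolase, had means of 78.1 CPM (SD 11) and 56.4 CPM (SD 4.33), and it shares 651 bases with Sds, a gene at 0.827 CPM or less on average in both groups, on the other strand.

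The other genes without overlap were near the limit of what the depth shows or differed little. Patl2, at 0.996 CPM (SD 0.201) and 0.528 CPM (SD 0.129), overlaps B2m and Trim69 on the other strand. B2m was at 109 CPM (SD 12.6) and 102 CPM (SD 12.4), and how reads of the overlaps were counted is uncertain. Cnnm2 had a log2 fold change of -0.21 (SE 0.05). Klhl25 was at 0.22 (SE 0.06), Trp53i13 at 0.24 (SE 0.08) and Trpv4, a calcium channel gene at 1.19 CPM or less in every library, at 0.93 (SE 0.24). Trp53i13 shares 860 bases with Abhd15 on the other strand, so its count has the same uncertainty. Under VPA, in libraries of other mice, all 9 genes had the same sign, with log2 fold changes from -0.36 to 0.35, and Gpr155 (edgeR adjusted p = 0.0147) and Ier3 (0.0429) passed. There, 35 genes (0.224%) had groups that did not overlap.

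Several genes outside the clock lists had the same libraries apart from their groups as the clock repressors, with wildtype replicate 8 in the mutant range and mutant replicates 1 and 3 between the groups. Eif5a2, an isoform of the translation factor eIF5A, was at 234, 228, 231, 221, 253, 244, 283 and 98.0 CPM in wildtype replicates 1 to 8 and at 165, 80.5, 136, 86.6, 91.8, 78.5, 105 and 76.3 CPM in mutant replicates 1 to 8. Its log2 fold change was -1.13 (SE 0.28), with edgeR adjusted p of 0.257 in the model of all libraries, 0.0257 in the fit of the 16 and 4.91e-05 without the vehicle libraries. Mthfd1l, the mitochondrial enzyme that releases formate in one-carbon metabolism, was at 6.16, 17.7 and 19.5 CPM (lowest, median and highest) with the wildtype and at 4.40, 5.93 and 10.7 CPM with the mutant label. Wildtype replicate 8 was its lowest wildtype library, and mutant replicates 1 and 3 were its highest mutant ones, at 10.7 and 9.50 CPM. Epor, the erythropoietin receptor gene, followed the same order, with 1.94 CPM in wildtype replicate 8 and 4.64 and 3.28 CPM in mutant replicates 1 and 3, and its means were 5.01 CPM (SD 1.35) and 2.51 CPM (SD 1.04). Ifit3b, an interferon-induced gene with a near-identical neighbour in Ifit3, had a log2 fold change of -0.77 (SE 0.24), and how reads were split between such copies is uncertain. Cndp2, a cytosolic dipeptidase, and Mme, the peptide-degrading enzyme neprilysin, had log2 fold changes of -0.44 (SE 0.13) and -0.42 (SE 0.15), and both passed only without the vehicle libraries, with edgeR adjusted p of 0.0076 and 0.0183.

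**Figure D3:**
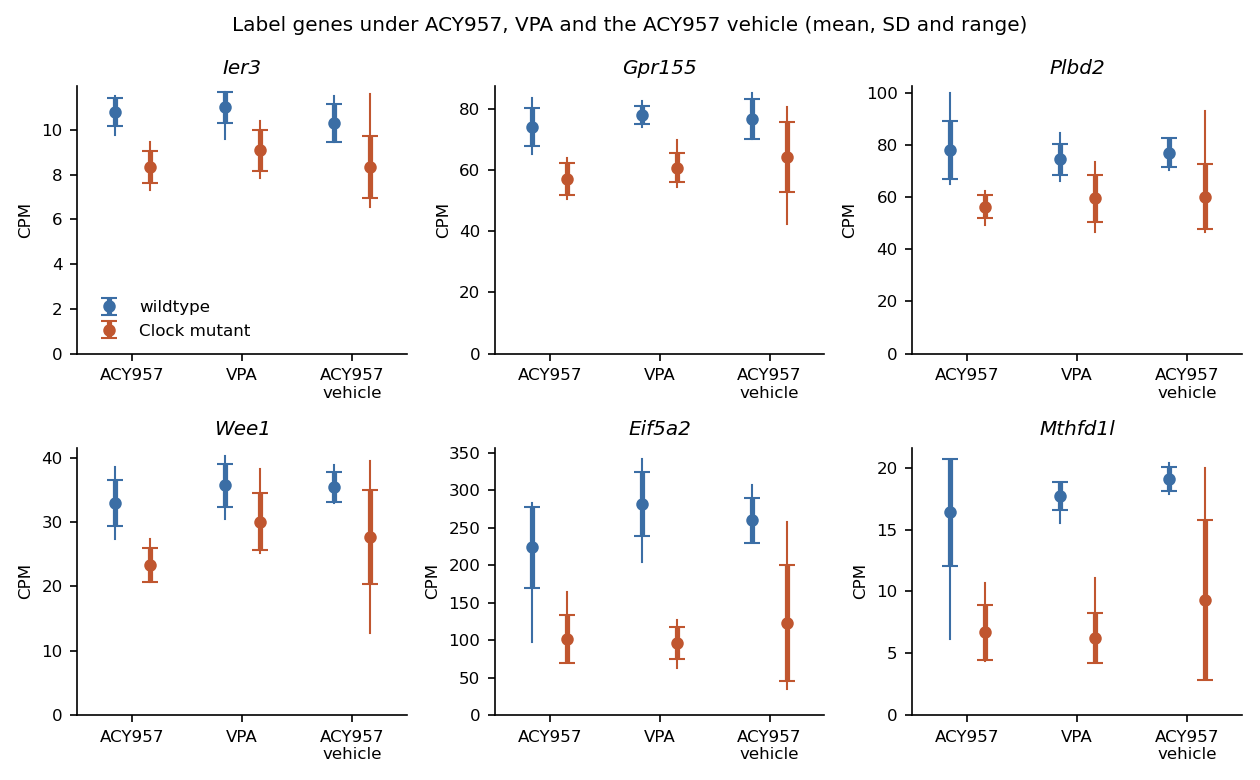
Mean CPM (points) with SD (thick bars) and range (thin bars) of 6 genes in wildtype-labelled (blue) and mutant-labelled (orange) groups under ACY957 (8 and 8 libraries), VPA (8 and 8) and the ACY957 vehicle (5 and 11). The mutant-labelled mean is the lower one in every panel and treatment, and the mutant vehicle group has a wide range, for Eif5a2 from 34.4 to 258 CPM.

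The VPA libraries, which share no mouse with the ACY957 libraries, were fitted in the same model. There, 157 genes passed (1.00%), and 2451 had an unadjusted edgeR p under 0.05 (15.7%). Under ACY957, 113 of the 157 had the same direction (52.3% of all genes tested did), 41 of the 46 lower and 72 of the 111 higher genes. Of the 157, 43 had the same direction with an unadjusted edgeR p under 0.05, beside 500 (3.2%) of all genes tested, and 1, Rabl2, had the opposite direction at that level. Of the 8 genes that passed in the fit of the 16 libraries, 6 were among the 157, and of the 20 without the vehicle libraries, 15 were; Csnk1e, Mme, Nr1d1, Plbd2 and Wee1 were not. Of the 157, 16 genes outside the clock lists, predicted genes left out, had groups that did not overlap under VPA; 5 of them (Cndp2, Eif5a2, Epor, Gpr155 and Mthfd1l) are among the 20. In mutant replicates 1 to 8, 11, 9, 10, 12, 12, 11, 13 and 9 of these 16 lay on the mutant side of the midpoint between the VPA groups, and in wildtype replicates 1 to 8, 3, 5, 4, 2, 4, 4, 1 and 12. By most of these genes wildtype replicate 8 was on the mutant side and mutant replicates 1 and 3 were on the side of their label, and the low Eif5a2, Epor and Mthfd1l of wildtype replicate 8 described above are part of its count.

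Whether the difference between labels was another one under ACY957 than under VPA was tested as an interaction. For the clock lists it was not detected: of the 10 repressors, the 7 activators and the 12 output genes, 0 had an unadjusted interaction p under 0.05, beside 8.86% of all genes tested. The interaction estimates were 0.16 (SE 0.65) for Ciart, 0.08 (SE 0.20) for Cry2 and 0.05 (SE 0.26) for Nr1d2 on the log2 scale. That of Nr1d1 was -0.40 (SE 0.22), with log2 fold changes of -0.59 under ACY957 and -0.19 under VPA. Only Pmch passed over all genes (0.00640%), with an interaction of -4.32 (edgeR adjusted p = 0.0236). Pmch encodes melanin-concentrating hormone, a peptide of the lateral hypothalamus. It was at 7.64 CPM (SD 5.83) and 6.57 CPM (SD 2.20) in the ACY957 groups labelled wildtype and mutant, and at 7.61 CPM (SD 5.75) and 131 CPM (SD 203) in the VPA groups. Of the 4 groups, the mutant-labelled VPA group stood apart, with a range from 4.48 to 542 CPM. With the level of the dopamine neuron list as a covariate the estimate was -0.99 (adjusted p = 0.998), and without wildtype ACY957 replicate 6 it was -3.91 (adjusted p = 0.163). Without mutant replicates 2, 3, 4 or 5 Pmch missed the threshold as well, with edgeR adjusted p from 0.0537 to 0.0588, and Sugct passed beside it without wildtype replicate 2.

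The same test against the vehicle of ACY957, with 5 wildtype-labelled and 11 mutant-labelled libraries, gave 0 genes in edgeR, a share of 0%, and 0 in DESeq2 and limma voom. At an unadjusted p under 0.05 it gave 287 genes (1.84%), and 0 of the 10 repressors, 7 activators and 12 output genes. The repressor list had a median log2 fold change of -0.45 in the vehicle groups and of -0.61 under VPA, beside -0.58 under ACY957. In the mutant-labelled vehicle group the clock output score ranged from 4.00 to 5.36, so that group held libraries at the level of the wildtype-labelled ones. The part of these libraries in the interaction was not tested.

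Genes of class I deacetylases were next, and RNA counts do not show which of these enzymes ACY957 inhibits. Class I deacetylases (Hdac1, Hdac2, Hdac3 and Hdac8) and their corepressor partners differed little between the labels: of 16 genes, 6 were higher and 10 lower, 0 had an unadjusted edgeR p under 0.05, and the median log2 fold change was -0.01. Hdac3, the deacetylase that REV-ERB receptors recruit, was at 97.2 CPM (SD 7.65) with the wildtype and 98.9 CPM (SD 7.14) with the mutant label. Hdac1, Hdac2 and Hdac8 had log2 fold changes of 0.05, -0.01 and -0.02, and Sin3a, a scaffold of a corepressor complex, of 0.08. All alternatives kept the list median between -0.01 and 0.01.

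Marker genes of dopamine neurons, which define the ventral tegmental area, were high in all 16 libraries, and their summed level ranged from 3310 to 11500 CPM with the wildtype and from 5520 to 11400 CPM with the mutant label. All 22 markers were higher with the mutant label, with a median log2 fold change of 0.27, but 0 passed. Only 1 had an unadjusted edgeR p under 0.05, beside 2.17% of all genes tested higher at that level. Th, which encodes tyrosine hydroxylase, the first enzyme of dopamine synthesis, was at 505, 1130, 1160, 1420, 517, 385, 1120 and 857 CPM in wildtype replicates 1 to 8 and at 670, 1600, 1330, 1430, 791, 1470, 1140 and 1090 CPM in mutant replicates 1 to 8. The low end was held by wildtype replicates 1, 5 and 6, and the groups overlapped over most of their range (log2 fold change 0.42, SE 0.41). Slc6a3, the dopamine transporter gene, had a log2 fold change of 0.35 (SE 0.46), and Lmx1a, a factor of dopamine neuron identity, of 0.41 (SE 0.17, edgeR adjusted p = 0.937). The list median was between 0.17 and 0.39 when each library was left out. Under VPA all 22 markers were lower with the mutant label, with a median of -0.54, and 7 of the 22 had an unadjusted interaction p under 0.05, beside 8.86% of all genes tested. In the ACY957 vehicle 11 markers were higher and 11 lower, with a median of 0.03. Against that vehicle 0 of the 22 had an unadjusted edgeR interaction p under 0.05, beside 1.84% of all genes tested. Their summed level under VPA ranged from 1310 to 15000 CPM with the wildtype and from 645 to 11100 CPM with the mutant label. Both VPA groups thus held punches with few dopamine markers, and the 22 markers of a punch are not separate results. In bulk tissue, more dopamine cells in a punch and more RNA per cell cannot be told apart.

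Mature oligodendrocyte genes, the makers of myelin, went the other way: all 12 were lower with the mutant label, with a median log2 fold change of -0.18, and 0 had an unadjusted edgeR p under 0.05. Their summed level ranged from 11600 to 18200 CPM with the wildtype and from 10100 to 17300 CPM with the mutant label. Mbp, the myelin basic protein gene, was at 5950 CPM (SD 825) and 5250 CPM (SD 1160). The part of these shifts in the clock results was not tested. The repressors were lower in all 24 alternatives, most of which left out a single library. Fits with the list levels as covariates were among them, but a direction alone does not show the part of these shifts. The log2 fold change of Per2, for example, lay between -1.30 and -0.98 over these alternatives, and that of Ciart between -1.87 and -1.49.

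**Figure D4:**
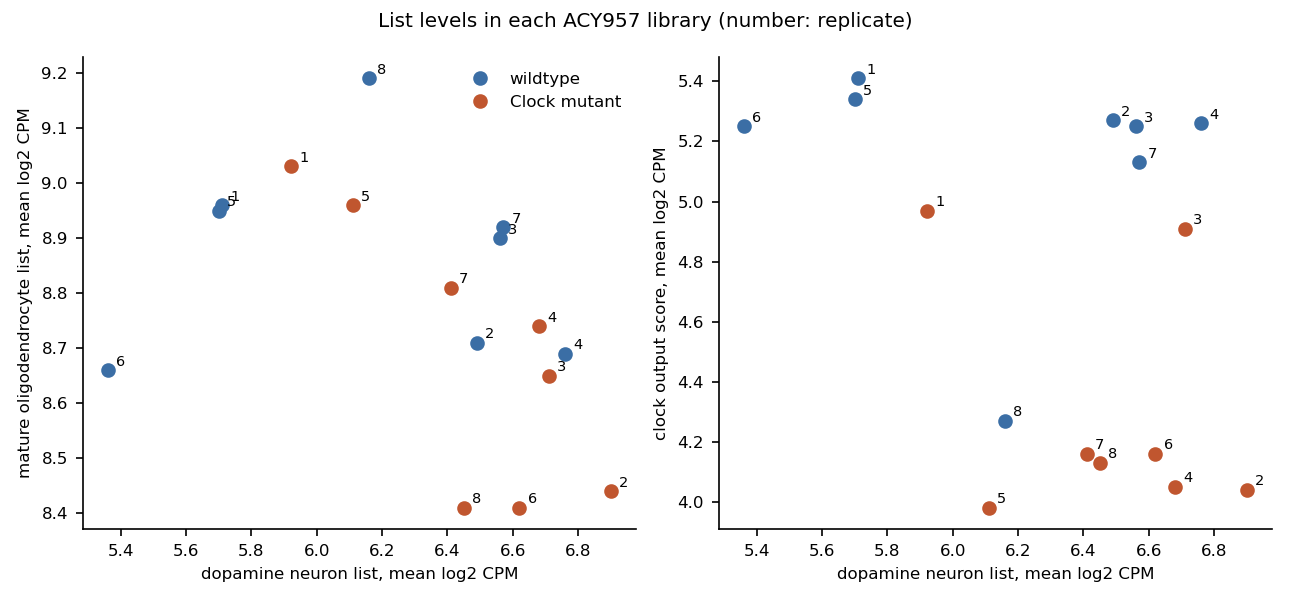
Mean log2 CPM of the mature oligodendrocyte list (left) and the clock output score (right) against the mean log2 CPM of the dopamine neuron list, 1 point per ACY957 library, numbered by replicate; blue is the wildtype and orange the mutant label. Wildtype replicates 1, 5 and 6 have the lowest dopamine levels (5.71, 5.70 and 5.36) and high clock output, and wildtype replicate 8 has the highest oligodendrocyte level (9.19) with low clock output (4.27).

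Markers of other cells were mostly alike in the groups. Over all genes tested, 2.17% were higher and 2.67% lower at an unadjusted edgeR p under 0.05. Astrocyte genes had a median log2 fold change of 0.06 with 7 of 10 higher, and Gfap, the glial filament gene, was at 145 CPM (SD 76.1) and 230 CPM (SD 77.6), the one of the list with an unadjusted edgeR p under 0.05. Microglia genes had a median of -0.02 with 8 of 12 lower and GABA neuron genes of -0.10 with 5 of 7 lower, with 0 at that level in either list. Oligodendrocyte precursor genes had a median of -0.06, 5 of 7 lower. Of 11 endothelial and mural genes 10 were lower (median -0.13), and Rgs5, a pericyte gene, and Flt1, a receptor of vascular growth factor, were lower at an unadjusted edgeR p under 0.05, with log2 fold changes of -0.27 (SE 0.11) and -0.22 (SE 0.10). Serotonin neuron genes, markers of the raphe near the punch, summed to at most 2.84 CPM in any of the 16 libraries.

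Under ACY957, the size of the difference in ependymal and choroid plexus genes depended on 1 library. The list's median log2 fold change was 0.68, with 5 of 8 genes higher. At an unadjusted edgeR p under 0.05, 4 were higher (Ttr, Kl, Folr1 and Aqp1), beside 2.17% of all genes tested. Mutant replicate 3 summed to 487 CPM over the list, beside 22.5 to 58.6 CPM in the other mutant-labelled and 16.9 to 37 CPM in the wildtype-labelled libraries. Ttr, the transthyretin gene of the choroid plexus, was at 430 CPM in that library and at 1.15 to 32.9 CPM in the other mutant-labelled ones. Without mutant replicate 3 the list median was 0.19 and the log2 fold change of Ttr was 1.01 in place of 3.71. In groups without that library, the list median was 0.76 under VPA (6 of 8 genes higher) and 0.80 in the ACY957 vehicle (8 of 8 higher). Trh, the thyrotropin-releasing hormone gene of the hypothalamus and other nuclei, was also at 77.5 CPM in mutant replicate 3 and at 2.98 CPM or less in the other mutant-labelled libraries. It is 1 of the 5 genes that DESeq2 called (log2 fold change 3.13, adjusted p = 0.0431), and without that library its log2 fold change was -0.07. Nov (67.9 CPM), Krt12 (4.41 CPM) and Krt2 (2.19 CPM) were highest in the same library.

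**Figure D5:**
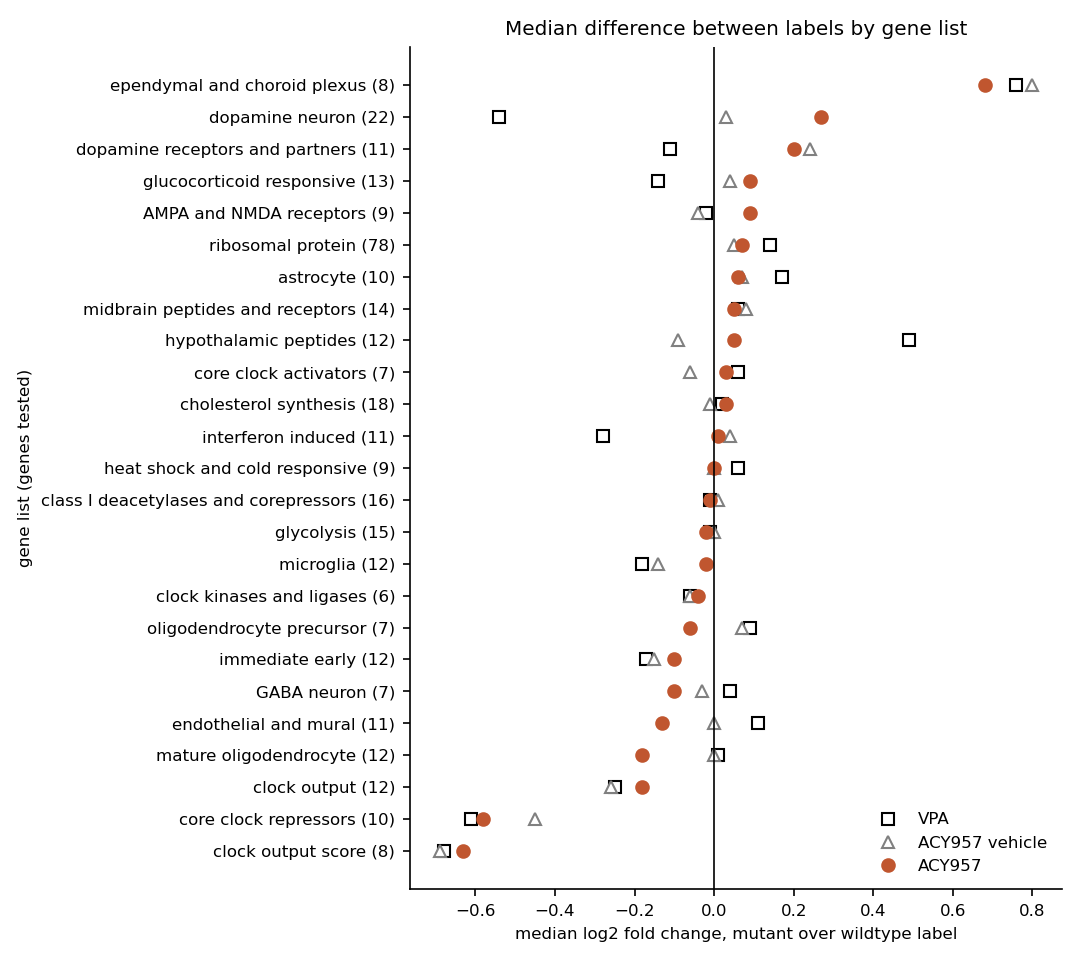
Median log2 fold change of the mutant over the wildtype label for each gene list (genes tested in brackets) under ACY957 (filled circles), VPA (open squares) and in the ACY957 vehicle (open triangles); the serotonin list, with 2 genes tested, is left out. The clock repressors are at -0.58, -0.61 and -0.45, and the dopamine neuron list is at 0.27 under ACY957, -0.54 under VPA and 0.03 in the vehicle.

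Other lists gave smaller differences. Immediate early genes had a median log2 fold change of -0.10, with 8 of 12 lower, and Arc, a synaptic plasticity gene, was at 12.4 CPM (SD 2.76) and 9.33 CPM (SD 1.80), a log2 fold change of -0.42 (SE 0.15, edgeR adjusted p = 0.842). Of 13 glucocorticoid-responsive genes 11 were higher (median 0.09), led by Zbtb16 at 0.92 (SE 0.34) and Cdkn1a at 0.84 (SE 0.39). Of the 13, 2 were higher at an unadjusted edgeR p under 0.05, beside 2.17% of all genes tested. Medians were 0.20 for dopamine receptors and partners, 0.05 for midbrain peptides and receptors, 0.09 for AMPA and NMDA receptors, 0.01 for interferon-induced genes, 0.00 for heat shock and cold-responsive genes, 0.03 for cholesterol synthesis, 0.05 for hypothalamic peptides and 0.07 for ribosomal protein genes, of which 71 of 78 were higher and 0 had an unadjusted p under 0.05. Glycolysis genes had a median of -0.02. Among them Gapdh, at only 7.39 CPM (SD 2.55) and 3.95 CPM (SD 0.634), had a log2 fold change of -0.91 (SE 0.21, edgeR adjusted p = 0.186). Its many near-identical pseudogene copies make that count uncertain, while Aldoa, of the same pathway, was at 1950 CPM (SD 57.9) and 1960 CPM (SD 136).

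Genes near Clock travel with the allele when it is bred onto another strain, so they were counted apart. Of 64 genes tested within 10 Mb of Clock on chromosome 5, 32 were higher and 32 lower, 2 had an unadjusted edgeR p under 0.05 (Cep135 and Epha5) and 0 passed. Epha5, an ephrin receptor gene, was at 83.2 CPM (SD 11.5) and 98.5 CPM (SD 15), and Cep135, a centrosome gene, at 2.94 CPM (SD 0.858) and 2.34 CPM (SD 0.459). Over all genes tested 4.84% had an unadjusted p under 0.05. Under VPA, 10 of the 64 did and 0 passed, beside 15.7% of all genes, so neither count stands above its background.

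The E-box was counted in the RefSeq promoters (250 bases before to 50 after a start) of the genes described. It stood in at least 1 promoter of 4 of the 8 repressors matched (Bhlhe41, Ciart, Cry1 and Per1), of 4 of the 12 output genes matched (Coq10b, Lonrf3, Tef and Tspan4) and of 0 of the 6 activators matched. Of the 20 genes that passed without the vehicle libraries 16 were matched, and 4 held it (Bhlhe41, Ciart, Eif5a2 and Tef). It stood in 1321 of the 11783 genes tested that were matched (11.2%) and in 2349 of all 32851 promoters of the table (7.15%). Of the genes whose groups did not overlap 7 were matched, and 0 held it. Of the repressors that held it, Ciart had the largest difference between the labels on the list, and Per1 and Cry1 had the smallest. Only the exact letters within this window were sought, so an E-box elsewhere or with other letters was not counted. Whether the E-box goes with the difference was not tested.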

How the data were processed

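RNA of 64 ventral tegmental area samples was sequenced after a poly(A) TruSeq Stranded kit. The authors deposited raw read counts per gene symbol, 1 column per mouse, and all 64 columns matched a label. Per the series' design text these came from FastQC 0.11.3, TopHat2 2.0.9 on mm10 and HTSeq 0.6.1 in union mode. Per the submitters' processing notes, Trimmomatic and HISAT2 were used, so the aligner differs between these sources. The strand setting of the counting is not given in the sources used here.

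In R 4.3.3, edgeR 4.0.16 was fitted with TMM scaling, its filterByExpr filter, 8 group means and quasi-likelihood F tests, with Benjamini-Hochberg adjustment and a threshold of 0.05. The code was tested on simulated data. Mean log2 CPM of lists used TMM scaling and a prior count of 2, except the clock output score, which used neither. Alternatives were the 16 libraries alone, a model without 16 vehicle libraries, other size factors, no filter, DESeq2 1.42.0, limma 3.58.1 (voom), a dopamine neuron or oligodendrocyte covariate, and each library left out. Leaving out libraries within the 2 smaller models was added after seeing the data. Two-sided p-values rest on 1 library per mouse.

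Named genes were Clock, members of the clock lists, genes that passed in the model of all libraries or of the 16, the 10 with the smallest p, the 5 of each interaction and up to 4 per other list; predicted genes were skipped. Genes that passed only without the vehicle libraries, those without overlap and those near Clock were named after their values were seen. The comparison and the lists were chosen with earlier results of these data known. Some list members are counted in their lists but not reported here by name. The listed clock output gene Noct had no matching symbol among those tested. Any pair of the 16 libraries differed by a chi-square of at least 7.468 per gene, so none was counted as a repeat of another.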

Additional observations from a re-analysis of the deposited data

Results flagged for a closer look

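In 67 genes, each of the 134 groups of 8 libraries was screened for a highest or lowest library whose gap to the next, as a share of the group's range, exceeded Dixon's 95% limit for 8 values. It was exceeded 29 times. For independent groups of normally distributed values the limit is exceeded in about 1 in 20. These genes share the same libraries and some were named by their values, so that rate does not measure what chance gives here.

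Wildtype replicate 8 was the library far from its group for 10 genes. It was the lowest for Cry2 (55.6 CPM), Nr1d2 (114 CPM), Ciart (1.70 CPM), Bhlhe41 (39.7 CPM), Epor (1.94 CPM), Mthfd1l (6.16 CPM), Eif5a2 (98.0 CPM) and Ifit3b (3.23 CPM), and the highest for Arntl (23.5 CPM) and Npas2 (5.17 CPM). All of these lay on the mutant side of the wildtype group. Mutant replicate 3 was the highest of its group for Hlf (75.7 CPM), Ttr (430 CPM), Trh (77.5 CPM), Nov (67.9 CPM), Folr1 (6.11 CPM), Krt12 (4.41 CPM) and Krt2 (2.19 CPM).

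Wildtype replicate 6 was the highest of its group for Cry1 (45.4 CPM) and, among genes of hypothalamic peptides and keratins, for Pmch (21 CPM), Trh (3.53 CPM), Hcrt (1.55 CPM) and Krt12 (0.556 CPM). Single libraries stood apart for Cnnm2 (wildtype replicate 5, 33.7 CPM), Folr1 (wildtype replicate 1, 1.36 CPM), Trp53i13 (mutant replicate 1, 10.6 CPM), Dynlt1b (mutant replicate 5, 3.53 CPM) and Klf9 (mutant replicate 7, 97.6 CPM). Low values stood apart for Cry1 in mutant replicate 2 (19.8 CPM) and Timeless in mutant replicate 6 (1.31 CPM).

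Pmch differed between treatments in its contrast of the labels, with an interaction of -4.32 on the log2 scale (SE 0.81, edgeR adjusted p = 0.0236).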

How the results depend on the processing

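The count of genes that passed between the labels was 0 in the model of all libraries, and 8 in the fit of the 16 libraries, 20 without the 16 vehicle libraries and 5 with DESeq2; the cause was not tested. It was 0 to 2 with each library left out, with Epor and Ier3 passing without wildtype replicate 8 and Ier3 without mutant replicate 3. Leaving out each library gave 0 to 30 genes in the fit of the 16 libraries and 14 to 30 without the vehicle libraries. The interaction with VPA, at 1 gene, gave 0 genes in the fit of the 4 groups, without the vehicle libraries, with the dopamine neuron covariate and with limma voom, 2 with DESeq2 (Pmch and Hcrt) and 0 to 2 with each library left out. The interaction with the vehicle gave 0 genes throughout. Of the log2 fold changes of named genes under the alternatives, 1301 kept direction and call, 36 newly passed, 30 moved beyond the spread and 1 reversed. Trh, at 3.12 with all libraries, was at -0.07 to 3.56 with each left out, the lowest without mutant replicate 3. Of list medians 599 stayed within the spread and 1, of the serotonin list with 2 genes tested, moved. No paired analysis was possible because the replicate numbers only follow the mouse order within each group.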
